A study of Mus musculus with 12 samples.

Results

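The genes described here encode 10 transcription factors that are known for their work in lymphocytes: Ikzf1, Ikzf3, Ets1, Runx1, Runx3, Tcf7, Lef1, Bach2, Ebf1 and Bcl11b. They were taken as a fixed list, which was chosen with earlier results of these data known. Found by symbol in GENCODE mouse release M21, they make up 10 of 21938 protein-coding genes on chromosomes 1 to 19, X and Y. Binding of MOF was read from peaks that lay in the gene body or within 3 kb of any annotated start site. The series mapped MOF, a lysine acetyltransferase of histone H4, by chromatin immunoprecipitation and sequencing (ChIP-seq) in visceral white adipose tissue. Mice of 8 weeks on a standard diet, C57BL/6 by the labels and backcrossed to C57BL/6J by the study's methods, were compared as wild type (Mof+/+), with both copies of the gene for MOF, and heterozygous (Mof+/-), with a single working copy in the whole animal. The labels give 12 libraries in 6 groups of 2, covering ChIP of MOF, ChIP of histone H3 and input DNA for both genotypes. The data analysed were a single MOF peak list for either genotype. Neither list holds replicate values, so differences between them have no measure of variation among mice. The labels call the tissue visceral white adipocyte, but whole minced fat was used, which also holds immune and vascular cells, and no cell type was sorted. In such a mixture, fewer cells of a type and less MOF per cell cannot be told apart.

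Ikzf1 (Ikaros) and Ikzf3 (Aiolos) are zinc finger factors that set gene programmes of developing lymphocytes. Ets1 and the Runx factors act in T, B and natural killer cells, with Runx1 also needed for blood stem cells and Runx3 for cytotoxic T cells. Tcf7 (TCF-1), Lef1 and Bcl11b direct T cell development, whereas Ebf1 specifies B cells and Bach2 restrains the terminal differentiation of B and T cells. Ebf1 is also active in the adipocyte lineage and Runx1 in other blood cells, so neither gene marks lymphocytes alone. Several of these genes are long and carry alternative promoters, which makes the place of a peak within the gene informative.

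In the Mof+/+ list all 10 genes held a peak, against 44.5% of protein-coding genes, and together they held 169 peaks. In the Mof+/- list 3 of 10 held a peak, against 1.89% of protein-coding genes, and the 6 peaks there belonged to Ikzf3, Runx3 and Lef1. Counting start sites alone, 10 of 10 held a Mof+/+ peak within 3 kb (42.8% of protein-coding genes) and within 1 kb (41%), and 3 of 10 a Mof+/- peak within 3 kb (1.68%) and within 1 kb (1.32%). Gene length bears on such a count, since 53.1% of the protein-coding genes at least as long as the shortest of the 10 held a Mof+/+ peak. Among genes with a Mof+/+ peak, 4.06% held a Mof+/- peak, and among genes with 7 or more Mof+/+ peaks, 9.39% did. The whole lists held 19753 and 716 peaks on these chromosomes.

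The sequences under the strongest Mof+/+ peaks show what kind of DNA was bound. Shown first are 121 bases around the summit, the point of highest signal, at the 3 genes with peaks in both genotypes and at Ikzf1 and Ets1, the genes with the highest and the fourth highest enrichment among the 7 genes without a Mof+/- peak. Each is read from RefSeq GRCm38.p6 on the strand of the gene, and capitals mark matches to short motifs searched on both strands: TGTGGT for Runx factors, GGAAGT for Ets factors, TGGGAA for Ikaros, CTTTGA for TCF/LEF, CCCNNGGG for Ebf factors and TGAGTCA for AP-1 and Bach. None of these strings contains another, although matches can overlap on the DNA.
Ikzf3 summit, chr11:98545781-98545901, - strand: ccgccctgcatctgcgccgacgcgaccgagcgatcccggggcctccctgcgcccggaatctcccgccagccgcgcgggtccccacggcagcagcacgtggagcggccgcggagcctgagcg
Runx3 summit, chr4:135151756-135151876, + strand: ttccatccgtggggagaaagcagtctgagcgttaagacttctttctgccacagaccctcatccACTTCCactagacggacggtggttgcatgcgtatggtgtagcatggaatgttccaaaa
Lef1 summit, chr3:131110547-131110667, + strand: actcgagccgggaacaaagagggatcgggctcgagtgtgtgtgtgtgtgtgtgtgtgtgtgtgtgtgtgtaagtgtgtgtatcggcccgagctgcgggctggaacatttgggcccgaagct
Ikzf1 summit, chr11:11685851-11685971, + strand: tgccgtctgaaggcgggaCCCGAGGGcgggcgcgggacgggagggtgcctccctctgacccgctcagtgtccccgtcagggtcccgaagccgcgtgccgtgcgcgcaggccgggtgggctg
Ets1 summit, chr9:32696633-32696753, + strand: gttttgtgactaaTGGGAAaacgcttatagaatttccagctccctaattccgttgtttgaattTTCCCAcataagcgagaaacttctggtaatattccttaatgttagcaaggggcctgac
The Ikzf3 and Ikzf1 summits lay in CpG-rich sequence, with 20 and 16 CpG sites in these windows, and the Ets1 window held 3. The Lef1 window carried a run of TG repeats. The only match at Runx3 was of the Ets type, and the Ets1 window held a pair of Ikaros-type matches. A match is a string of letters and was not tested as a binding site.

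Over the 201 bp around every summit, the Ikaros letters occurred in 38 of 169 peaks at these genes (22.5%) and in 16.3% of the whole Mof+/+ list. The Runx letters occurred in 30 peaks (17.8%, against 13.2% of the list) and the TCF/LEF letters in 21 (12.4%, against 10.4%). The Ets letters, also found in 21 peaks, stood at 12.4% against 14.5%, the Ebf letters at 9.47% against 10.8%, and the AP-1 and Bach letters at 1.78% against 2.75%. No test was made of these shares. Chromatin was cut with CviKI-1, an enzyme that cleaves at purine-GC-pyrimidine sites, before sonication, and such sites occurred at a median of 17.8 per kb under the 169 peaks and 21.2 per kb over the list. Their part in the results was not tested.

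The number of Mof+/+ peaks set these genes apart from most others. Since the genes were chosen with earlier results of these data known, their ranks and shares are a description and not a test. Bach2 held 35 peaks, Ets1 29, Ikzf1 27 and Ikzf3 17, which placed them at ranks 4, 6, 9 and 30 of all protein-coding genes. Tcf7 and Lef1 held 13 each (rank 59), Ebf1 11 (rank 95), Bcl11b 10 (rank 124), and Runx1 and Runx3 7 each (rank 261). Thus 8 of 10 genes held 10 or more peaks, against 0.679% of protein-coding genes and 2.4% of those of at least 50 kb. The lowest count, 7, was reached by 1.5% of protein-coding genes and by 3.68% of those at least as long as Tcf7, the shortest of the 10.

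**Figure D1:**
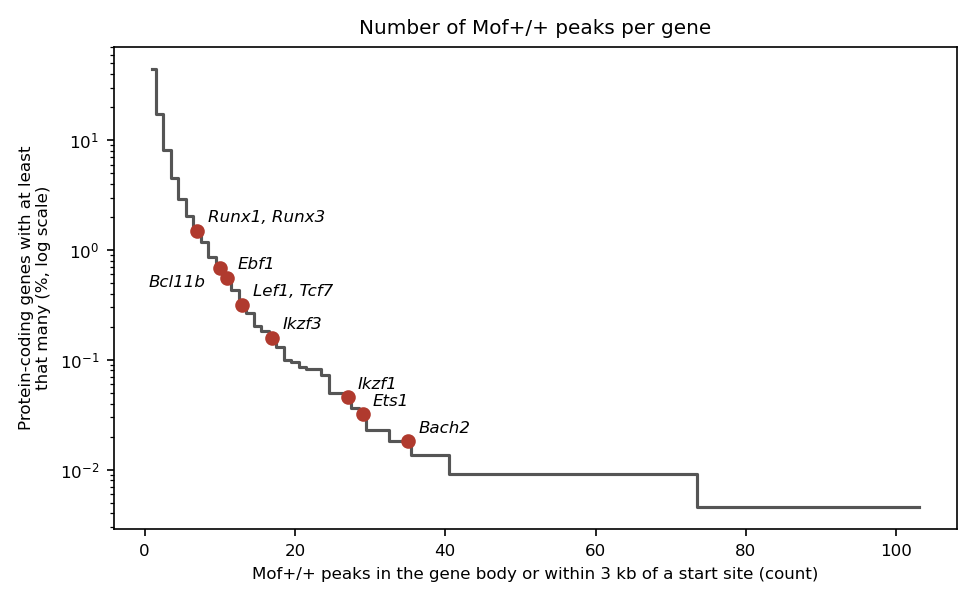
Percentage of protein-coding genes (log scale) with at least a given number of Mof+/+ peaks in the gene body or within 3 kb of a start site (grey line), with the 10 lymphoid factor genes marked (red points). Every marked gene sits at or below 1.5%, and Bach2 with 35 peaks is the farthest right.

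Per unit of sequence, the 10 genes with their flanks held 107 peaks per Mb, and all protein-coding regions held 14.7. They took up 0.144% of the protein-coding regions and held 0.856% of the whole Mof+/+ list. A single broad signal can be split by a peak caller, and 69 pairs of neighbouring peaks within these genes lay at most 1000 bp apart. After joining such neighbours, 100 peaks were left, with 28 at Bach2, 15 at Ikzf1, 10 each at Ets1 and Ikzf3, 8 each at Lef1, Ebf1 and Bcl11b, 5 each at Runx1 and Tcf7, and 3 at Runx3. On that count 4 of 10 genes held 10 or more, against 0.287% of protein-coding genes, and 9 of 10 held 5 or more, against 1.7%.

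A measure that depends less on splitting is the share of the gene body under Mof+/+ peaks, although gaps between pieces are left out of it. It was 58.9% at Tcf7, 36.8% at Ets1, 27.9% at Ikzf1, 12.3% at Runx3, and 11.3% at both Lef1 and Ikzf3. Bcl11b (6.84%), Bach2 (6.72%), Runx1 (3.81%) and Ebf1 (1.86%) were lower. Among the 7545 protein-coding genes at least as long as Tcf7, whose median was 0.0989%, Tcf7 ranked 2, Ets1 8 and Ikzf1 12. A share of 10% or more was found at 6 of 10 genes, against 1.95% of those genes.

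Most of the peaks lay inside the genes and away from their starts, although the strongest did not. Of the 169 Mof+/+ peaks, 34 came within 3 kb of a start site and 135 lay in the gene body only, a share of 79.9% (95% Wilson interval 73.2 to 85.2), whereas 25.8% of the peaks at protein-coding genes were of that kind, and 39.7% at those no shorter than Tcf7. Even that set holds many genes shorter than most of the 10. This and the later Wilson intervals treat peaks as independent, although neighbouring peaks can be pieces of a single signal. Of the 6 peaks at these genes among the 716 strongest of the list, 0 lay in the gene body only, against 3.47% of such peaks at protein-coding genes. The summit of 147 peaks fell in an intron (87.0%), of 9 in a UTR and of 2 in coding sequence. Another 4 fell in exons of noncoding transcripts, 4 upstream and 3 downstream of the gene. The start of another gene lay within 3 kb of 21 of the 169 peaks, among them Zpbp2 beside Ikzf3 and noncoding or predicted genes inside Tcf7, Lef1, Bach2 and Ebf1, and these peaks cannot be given to a single gene.

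The layout differed from gene to gene. In Ikzf1, peaks followed each other from 0.908 kb to 88.9 kb beyond the first start site, along the full 87.9 kb gene. In Ets1, 3 peaks lay between 16.2 and 36.1 kb, and all others began at the coding promoter near 59.8 kb and ran to the end of the gene, including a peak 10769 bp wide at chr9:32708209-32718977. Tcf7 had its start-site peak and then 12 more between 8.18 kb and the end of its 30.6 kb body. Runx1, by contrast, had only 3 peaks outside its promoters in 225 kb.

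**Figure D2:**
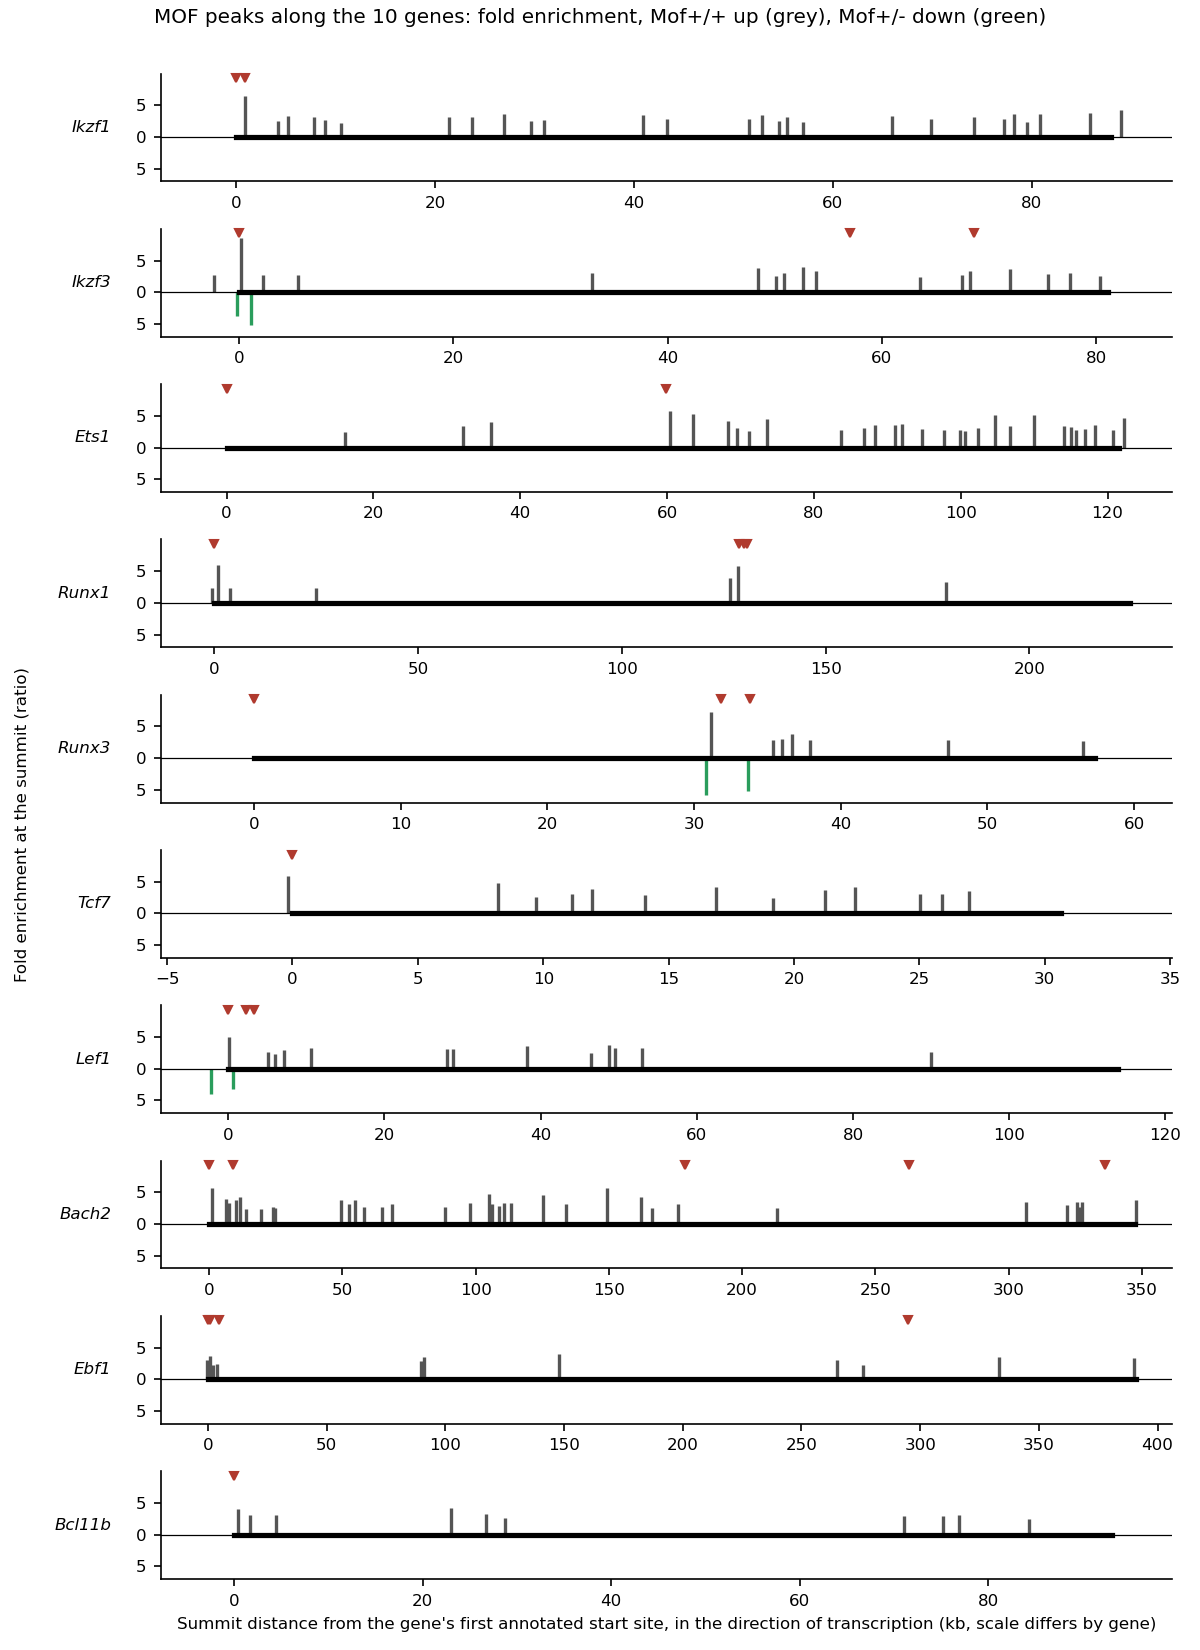
Fold enrichment (ratio, vertical axis) of every MOF peak against the distance of its summit from the first annotated start site (kb, own scale for each gene), with Mof+/+ peaks drawn upward in grey and Mof+/- peaks downward in green. Thick lines are gene bodies and red triangles are promoters. Mof+/+ peaks run along Ikzf1, Ets1 and Tcf7, and the 6 Mof+/- peaks lie at starts of Ikzf3, Runx3 and Lef1.

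The strength of a peak is given as fold enrichment, here the fragments at the summit plus 1, divided by the peak caller's local background estimate plus 1. Many summits shared the lowest background of their list, 3.52 fragments in Mof+/+ and 2.26 in Mof+/-, so the denominator was often not specific to the site. The 169 Mof+/+ peaks ranged from 2.20 to 8.63 with a median of 3.10, against 3.40 over the whole list. The peaks at starts had a median of 3.69 and those in gene bodies of 3.10, close to the medians of all such peaks at protein-coding genes (3.67 and 3.10). The median width was 591 bp, against 609 bp in the list. Read counts behind these values were low, with 11 to 38 fragments at a summit and a median of 15.

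Ordered by its strongest Mof+/+ peak, Ikzf3 came first with an enrichment of 8.63 from 38 fragments (95% Poisson interval 26.9 to 52.2). Runx3 followed at 7.30 (32 fragments), Ikzf1 at 6.38 (32), Runx1 at 5.97 (26) and Tcf7 at 5.93 (28). Ets1 reached 5.79 (33 fragments), Bach2 5.75 (25), Lef1 5.03 (32), Bcl11b 4.20 (18) and Ebf1 3.98 (17). With the background held fixed, the intervals of all 9 neighbouring pairs in this order overlapped, so no step of it exceeded counting error. At the ends of the order, the interval of Ikzf3 (6.17 to 11.8) barely met those of Bcl11b (2.58 to 6.51) and Ebf1 (2.41 to 6.24).

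By fold enrichment, the strongest peak lay at a start site in 8 of 10 genes. At Bach2 this rested on 5.75 (25 fragments) against 5.74 (26 fragments) for an intronic peak at chr4:32387486-32388632, 149 kb into the gene, and by p-value the intronic peak was the stronger, at a −log10 p of 14.2 against 13.9. The exceptions were Bcl11b, where an intronic peak 23.0 kb into the gene (4.20) stood beside a start-site peak of 3.98, and Ebf1, where an intronic peak at 148 kb (3.98) stood beside a start-site peak of 3.68. All of these differences were within counting error. The share of all protein-coding genes whose strongest peak lies at a start site was not computed. Of the peaks at protein-coding genes, 25.8% lay in gene bodies only. The strongest peaks of 6 genes, Ikzf1, Ikzf3, Ets1, Runx1, Runx3 and Tcf7, were among the 716 strongest of the Mof+/+ list by p-value, against 3.62% of protein-coding genes with such a peak. Runx1 stood exactly at that cutoff, a −log10 p of 14.7491, and Lef1, at 14.6757, just missed it.

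**Figure D3:**
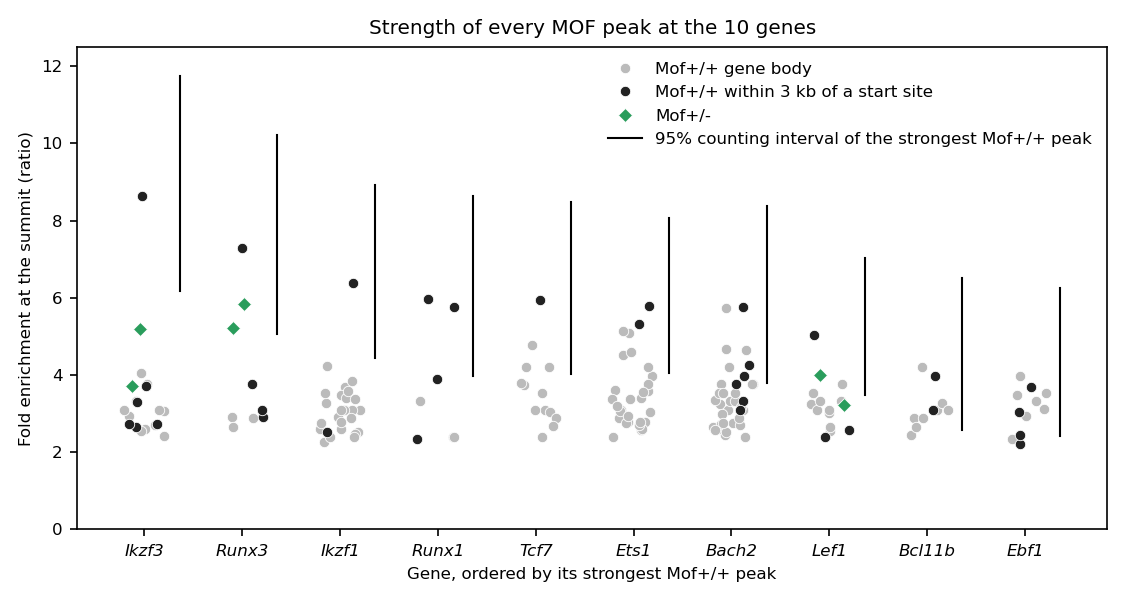
Fold enrichment (ratio) of every peak at the 10 genes, ordered by the strongest Mof+/+ peak, for Mof+/+ gene-body peaks (light grey), Mof+/+ peaks within 3 kb of a start site (black) and Mof+/- peaks (green). Vertical lines are 95% counting intervals of the strongest Mof+/+ peak. Ikzf3 reaches 8.63 and Ebf1 3.98, and intervals of neighbouring genes overlap.

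Counted by promoter, the 49 annotated start sites of the 10 genes, from 56 transcripts, formed 28 alternative promoters when starts within 500 bp of each other were joined. A Mof+/+ peak lay within 3 kb of 22 of 28 promoters, against 27.7% of the promoters of protein-coding genes, and within 1 kb of 21, against 22.9%. The peak covered the start itself at 18. Of the 17 promoters with a coding transcript 16 had a peak within 3 kb, and of the 11 whose transcripts were all noncoding, 6 did. The 27.7% over all promoters was not split by kind of transcript, so this contrast has no matching share. A Mof+/- peak lay within 3 kb of 6 promoters, against 1.1%, and within 1 kb of 4, against 0.727%. Promoters of a gene that lie close together share peaks, so these counts are not independent of each other.

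Runx1, Runx3 and Ets1, with widely spaced promoters, differed in how their distal start was bound. Runx1 had peaks at both its distal promoter and, 129 kb downstream, its proximal promoter, at enrichments of 5.97 (26 fragments) and 5.75 (25 fragments). These values did not differ beyond counting error. Runx3 had none within 3 kb of its distal coding promoter, and its strongest peak, at 7.30, covered the promoter 31.8 kb downstream. Ets1 likewise had no peak at its upstream start, which has noncoding transcripts only, and a peak of 5.79 at the coding promoter 59.8 kb downstream. Their start sites are printed below because they differ in the density of CpG sites, from 100 bases before to 50 bases after the start (RefSeq GRCm38.p6, strand of the gene), with CpG in capitals.
Runx1 distal start, chr16:92826099-92826249, - strand: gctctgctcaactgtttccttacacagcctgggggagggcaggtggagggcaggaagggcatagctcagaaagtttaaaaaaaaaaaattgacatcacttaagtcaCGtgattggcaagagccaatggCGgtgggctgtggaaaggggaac
Runx1 proximal start, chr16:92697278-92697428, - strand: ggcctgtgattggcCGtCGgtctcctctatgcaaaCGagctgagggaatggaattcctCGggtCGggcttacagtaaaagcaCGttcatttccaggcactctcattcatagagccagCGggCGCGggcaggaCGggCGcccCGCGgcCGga
Runx3 distal start, chr4:135120552-135120702, + strand: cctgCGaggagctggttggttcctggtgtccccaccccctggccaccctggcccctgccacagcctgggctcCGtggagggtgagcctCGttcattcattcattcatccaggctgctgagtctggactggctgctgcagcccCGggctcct
Runx3 proximal start, chr4:135152396-135152546, + strand: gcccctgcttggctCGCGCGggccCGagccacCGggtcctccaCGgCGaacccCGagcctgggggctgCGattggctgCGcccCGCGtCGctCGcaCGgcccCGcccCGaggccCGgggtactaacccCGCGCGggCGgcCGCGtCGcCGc
Ets1 upstream start, chr9:32636121-32636271, + strand: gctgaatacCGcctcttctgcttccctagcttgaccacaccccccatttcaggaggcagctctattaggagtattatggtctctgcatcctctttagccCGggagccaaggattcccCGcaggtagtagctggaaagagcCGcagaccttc
Ets1 coding start, chr9:32695922-32696072, + strand: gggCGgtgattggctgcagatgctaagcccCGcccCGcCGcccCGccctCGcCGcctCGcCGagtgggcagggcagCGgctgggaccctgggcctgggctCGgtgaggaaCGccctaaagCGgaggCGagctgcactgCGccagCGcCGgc
In the wider window of 1001 bp, the distal Runx1 promoter held 17 CpG sites and the proximal promoter 83. The distal Runx3 promoter held 24 and its bound counterpart 130, and the Ets1 starts held 11 and 89. Distal Runx1 had a peak at 17 CpG sites, and distal Runx3 had none within 3 kb at 24. The part of CpG content in binding was not tested.

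Over all 28 promoters, the 22 with a Mof+/+ peak within 3 kb held a median of 48 CpG sites (range 8 to 144) and the 6 without a peak a median of 15 (range 7 to 24). The same medians over promoters of all protein-coding genes were 54 and 13. The other unbound promoters were the middle promoter of Ikzf3, the last 2 of Bach2 and the last of Ebf1, each with noncoding transcripts only. The middle promoter of Ikzf3 missed the window narrowly, with its nearest peak 3034 bp away. Promoter 3 of Bach2 counted as bound with its nearest peak 2509 bp away. Bound promoters with few CpG sites were the last of Lef1 (8), promoters 2 and 3 of Bach2 (12 and 13) and the distal promoter of Runx1 (17). The last Lef1 promoter is covered by the same peak as the first.

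**Figure D4:**
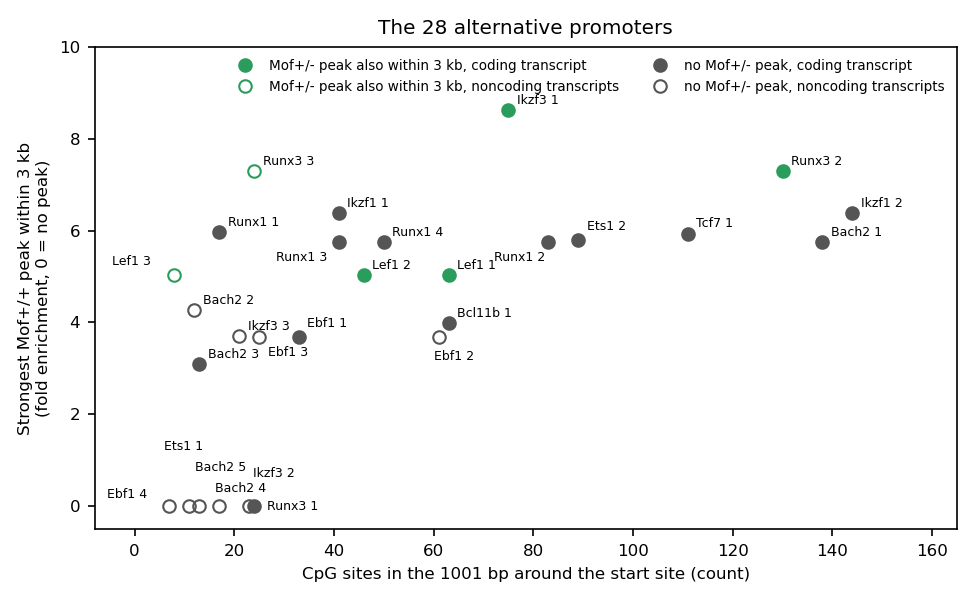
Fold enrichment of the strongest Mof+/+ peak within 3 kb (0 where there was none) against the CpG sites counted in 1001 bp centred on the start, for each of the 28 promoters, numbered from the first start in the direction of transcription. Filled points have a coding transcript, open points have noncoding transcripts only, and green points also have a Mof+/- peak. All promoters with more than 24 CpG sites had a Mof+/+ peak.

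The Mof+/- list held 6 peaks at these genes, and all 6 overlapped a Mof+/+ peak by at least 1 bp, although none of the pairs overlapped by 50% of both peaks. Among the 716 strongest Mof+/+ peaks, as many as the Mof+/- list holds, these genes had 6 as well. At Ikzf3 the Mof+/+ peak at chr11:98544760-98547741 had an enrichment of 8.63, and the pair of Mof+/- peaks inside it had 5.20 (17 fragments, 95% Poisson interval 9.90 to 27.2) and 3.71 (14 fragments). At Runx3 the Mof+/+ peak at chr4:135150357-135155263 had 7.30, and the Mof+/- peaks had 5.83 (18 fragments, 10.7 to 28.4) and 5.21 (16 fragments). At Lef1 the Mof+/+ peak at chr3:131105658-131114132 had 5.03, and the Mof+/- peaks had 3.99 (12 fragments) and 3.23 (16 fragments). At each gene the Mof+/- values were lower. The intervals of enrichment overlapped all the same: the upper of the Mof+/- values ran from 3.15 to 8.15 at Ikzf3, from 3.58 to 9.03 at Runx3 and from 2.21 to 6.73 at Lef1, and the Mof+/+ values from 6.17 to 11.8, 5.06 to 10.2 and 3.49 to 7.03.

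With q-values no higher than 0.001 in both lists, both Mof+/- peaks of Lef1 dropped out and 2 of 10 genes, Ikzf3 and Runx3, still held one. The share of all protein-coding genes with a Mof+/- peak at that threshold was not computed. The positions were not identical within the shared peaks. The Mof+/+ summit of Ikzf3 lay in the gap between its Mof+/- peaks, and so did that of Lef1, where the TG repeats printed above lie. Only at Runx3 did the Mof+/+ summit fall inside a Mof+/- peak. The Mof+/- peaks were 281 to 1651 bp wide and the Mof+/+ peaks that held them 2982, 4907 and 8475 bp.

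The other 166 Mof+/+ peaks did not overlap a Mof+/- peak, so 3 of 169 did (1.78%, 95% Wilson interval 0.606 to 5.09), against 2.44% of the whole list. By place, it was 3 of 34 peaks within 3 kb of a start (8.82%, 3.05 to 23.0), against 2.99% of such peaks at protein-coding genes, and 0 of 135 in gene bodies, which allows a share of up to 2.22%, against 0.84%. Strong Mof+/+ peaks without a counterpart were those at the starts of Ikzf1 (6.38), Runx1 (5.97 and 5.75), Tcf7 (5.93), Ets1 (5.79, and 5.31 further on) and Bach2 (5.75). Others lay in gene bodies, at Bach2 (5.74) and Ets1 (5.14 and 5.09). These enrichments exceeded the 5.03 at Lef1, whose peak was shared, but all lay within its counting interval of 3.49 to 7.03. By the peak caller's p-value, the Lef1 peak (−log10 p of 14.7) was stronger than some of them. These were both peaks at Bach2, the 5.75 at Runx1 and the 5.31, 5.14 and 5.09 at Ets1. The Lef1 peak was also 8475 bp wide. For the 7 genes without a Mof+/- peak, the nearest such peak lay between 1252 kb (Runx1) and 11412 kb (Ebf1) away.

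The lists give no fragment totals, so their depth is unknown. Mof+/+ summits had a lowest background of 3.52 fragments, 1.56 times the 2.26 of Mof+/- summits, and the weakest Mof+/- peak had a −log10 p-value of 4.72. Of the 169 Mof+/+ peaks, 100 were at least that strong (59.2%, 51.6 to 66.3), against 68.6% of the list. The ratio of the backgrounds was used as a stand-in for depth, although it also depends on settings of the peak caller. When fragments and background were scaled down by it, 29 still were (17.2%, 12.2 to 23.6), against 30.1% of the list. These 29 came from 9 of the 10 genes, with 7 at Ets1, 6 at Bach2, 5 at Tcf7, 3 each at Ikzf1 and Runx1, 2 at Ikzf3, 1 each at Runx3, Lef1 and Bcl11b, and none at Ebf1. Of the 29, 26 had no Mof+/- counterpart (89.7%, 73.6 to 96.4), against 94.3% of such peaks in the list. The remaining 140 would not have passed the weakest Mof+/- p-value after this scaling.

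Close relatives of these genes mostly held fewer Mof+/+ peaks in the same tissue. Of 16 relatives, 12 held a Mof+/+ peak, against 44.5% of protein-coding genes and 53.1% of those at least as long as Tcf7. Their median was 1 peak per gene, against 13 at the 10 lymphoid factor genes and 0 over all protein-coding genes. The median lengths of the relatives and the 10 genes were similar, at 111 kb and 104 kb. Fli1 (15 peaks) and Elf1 (16 peaks), Ets-family genes active in blood cells, were the relatives with 10 or more. Over all protein-coding genes, 0.679% held that many. Ikzf2 and Ikzf4 held none beside 27 at Ikzf1 and 17 at Ikzf3, Erg none and Ets2 1 beside 29 at Ets1, and Bach1 1 beside 35 at Bach2. Tcf7l1 (1) and Tcf7l2 (3) stood beside 13 at Tcf7 and Lef1, Ikzf5 and Cbfb held 1 each, and Ebf4 held none. The lists were chosen with earlier results of these data known, are described by these counts and were not tested against each other.

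**Figure D5:**
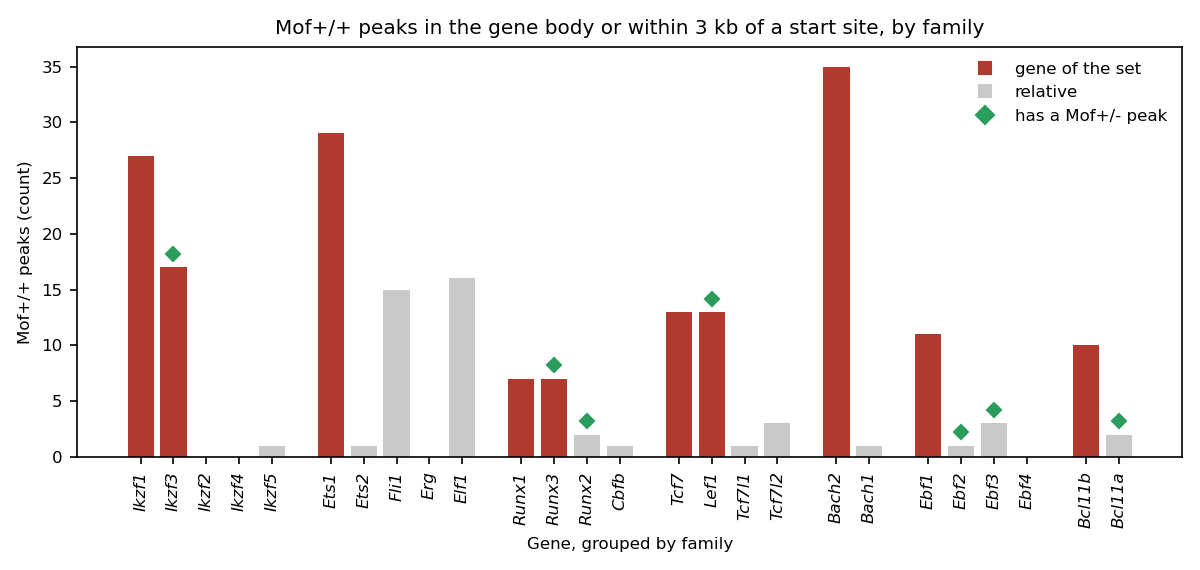
Number of Mof+/+ peaks in the gene body or within 3 kb of a start site for the 10 genes (red) and their 16 relatives (grey), grouped by family, with green diamonds at genes that also hold a Mof+/- peak. Bach2 has 35 and Bach1 1, and only Fli1 and Elf1 among the relatives reach 10.

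Mof+/- peaks were found at 4 of 16 relatives, beside 3 of the 10 lymphoid factor genes and 1.89% of protein-coding genes. The 4 were Runx2, the bone-forming Runx factor, Ebf2 and Ebf3, and Bcl11a. These genes had few Mof+/+ peaks, with 2 at Runx2, 1 at Ebf2, 3 at Ebf3 and 2 at Bcl11a, and the strongest were 4.65, 3.10, 3.76 and 2.89. Their strongest Mof+/- peaks were at 3.46, 3.99, 4.70 and 4.29. At Ebf2, Ebf3 and Bcl11a the enrichment was thus higher in the Mof+/- list, whereas at Runx2, as at Ikzf3, Runx3 and Lef1, it was lower, and none of these differences was tested. The whole Mof+/- list had a median enrichment of 4.29, against 3.40 for Mof+/+, so the lists did not sit at the same level. Within the Ebf family, the lymphoid and adipose gene Ebf1 with 11 Mof+/+ peaks had no Mof+/- peak.

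Among 26 other lymphocyte transcription factors, 22 held a Mof+/+ peak, against 44.5% of protein-coding genes. Of the 26, 7 held 10 or more, against 0.679%. Their median length was 29.7 kb. Foxp1, a forkhead factor of B cells, held 73 peaks in a gene of 597 kb. Foxo1 held 18, Nfatc1 16, and Pax5, the factor that maintains B cell identity, and Satb1, a chromatin organiser of thymocytes, 14 each. Among those without a Mof+/+ peak were Tbx21, Foxp3 and Zbtb16, which direct effector, regulatory and innate-like T cells. Mof+/- peaks were found at 4, Pax5, Prdm1, Tcf12 and Eomes, against 1.89% of protein-coding genes.

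Genes that mark cell types were counted in the same way. A Mof+/+ peak was found at 8 of 8 B cell genes, Pax5 among them, with 1 to 14 peaks each, 6 of 8 T cell genes (0 to 5 peaks) and 7 of 8 adipocyte genes (0 to 6), but at 1 of 8 macrophage genes (0 to 3) and 2 of 8 endothelial genes (0 to 15), beside the 44.5% of all protein-coding genes. The endothelial gene Pecam1 held 15 peaks, the most of any gene on these lists, with a strongest enrichment of 5.53, and the macrophage gene Cd68 held 3, with 5.75. Cd4 and Zap70 held none, nor did the adipocyte gene Lep, the macrophage genes Adgre1 and Csf1r or the endothelial genes Cdh5 and Kdr. In the Mof+/- list, 1 of the B cell genes (Pax5) and 0 of the T cell, adipocyte, macrophage and endothelial genes held a peak. Over all protein-coding genes this share was 1.89%. Of the 26 Mof+/+ peaks at B cell genes, 14 belonged to Pax5, which is also among the lymphocyte factors above, and the adipocyte and T cell genes had the same median of 2.5 peaks. The part that the cell types of the tissue had in the results was not tested.

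Ranked by number of Mof+/+ peaks with no Mof+/- peak, as at Bach2, Ets1 and Ikzf1, the 5 protein-coding genes outside these lists that were most alike were Ubac2 with 40, Sgms1 with 29, Akap13 with 28, Gm20696 with 27 and Arhgef3 with 24. Their strongest peaks lay between 4.87 and 6.57, and their lengths between 142 and 409 kb.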

How the data were processed

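The authors mapped reads to GRCm38 (mm10) with snakePipes and called peaks with MACS2 2.1.1.20160309.3 against input at a q-value threshold of 0.1. How replicates were combined is not stated. The methods describe a merging of peaks within 1000 bp, but 69 neighbouring Mof+/+ pairs at these genes still lay that close. The deposited fold enrichment is a ratio at the summit. The same caller gave the deposited −log10 p-value and, as another deposited score, the q-value on that scale. An integer score column was not used, and the deposited summit offset served as a coordinate. The design text counts 2 control and 3 Mof+/- animals, whereas the labels give 2 libraries and the reporting summary 2 littermates per genotype. The MOF antibody in the labels is not among those in that summary.

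Genes came from GENCODE M21 and sequence from RefSeq GRCm38.p6. Coordinates count from 1. The 10 genes and all lists were chosen with earlier results of these data known. Peaks were retained when they shared at least 1 bp. Fragments and background were solved from fold enrichment and p-value, within 0.001 for 169 of 169 Mof+/+ peaks. Intervals (95%, Wilson or Poisson) and the limit for a count of 0 (3 counts) cover counting error only. The Wilson intervals treat the peaks of a gene as independent. Relatives are all described, of the other factors those with the most peaks, with Mof+/- peaks or with none are named (1 item is not reported here), and the most alike genes are the 5 with the most Mof+/+ peaks and no Mof+/- peak. Alternatives were stricter q-values, equal cutoffs or sizes, other windows, overlaps and joining distances. Signal tracks and H3 libraries were not analysed here. Python 3.11.15, pandas 2.3.3 and SciPy 1.17.1 were used, and the code was tested on simulated data.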

Additional observations from a re-analysis of the deposited data

How the results depend on the processing

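Across 14 alternative settings, 71 of the values recomputed stayed within 1.5 times the reported one and 15 moved further. The number of Mof+/+ peaks at the genes, 169, fell to 100 with the weakest Mof+/- p-value as cutoff, 65 with q-values no higher than 0.001 and 6 among the 716 strongest peaks of the list. It was 34 with start sites only, 19 with start sites only and a window of 1 kb (chosen after seeing the data, like the scaling for depth), and 100 after merging peaks within 1000 bp. With the 716 strongest peaks, 6 of 10 genes, 8 promoters and 6 related genes held a Mof+/+ peak and the median enrichment was 6.17. With q-values no higher than 0.001, 3 Mof+/- peaks and 3 promoters with such a peak were left, and 2 genes, since Lef1 lost both of its peaks. The count of shared Mof+/+ peaks, 3, became 0 when peaks had to overlap by 50%, 1 with the Mof+/+ summit inside the Mof+/- peak, and 5 within 1000 bp. No paired analysis was possible because the lists carry no replicate numbers, and no library could be left out. Depth is unknown, and with the backgrounds as a stand-in for it, 29 Mof+/+ peaks passed the Mof+/- cutoff.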
